A study of Saccharomyces cerevisiae with 10 samples.

Results

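The transcripts of 10 oxidative stress defence genes were followed in sorted cells of the budding yeast Saccharomyces cerevisiae. They encode the catalases CTT1 and CTA1, the superoxide dismutases SOD1 and SOD2, the peroxiredoxins TSA1 and AHP1, the thioredoxins TRX1 and TRX2, the glutaredoxin GRX1 and the transcription factor YAP1, and were picked by name out of the 7252 genes counted. The cells were a prototrophic version of BY4741, a MATa laboratory strain carrying his3Δ1, leu2Δ0 and met15Δ0, in which the pRPL28 promoter drove GFP (sfGFP) from the ura3 locus. All had grown in YPD for 4 h and spent 1 h in nitrogen-limited medium with 0.8 mM proline. The sort, on GFP and side scatter, gave a high and a low subpopulation, with budding cells and doublets gated out and the cells held cold in PBS during the sort. There were 5 libraries of each subpopulation, of which the study compared 5 high with 3 low, having set aside low 2_2609 and low 1_2709 on a principal component plot. H and L in the library titles were read as high and low, since the labels say only that each is a subpopulation. All cells of both groups carried the reporter and had been shifted, so no unshifted cells were available for comparison, and whether prototrophy came from a minichromosome or an integrated copy was not given for these libraries.

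Respiring cells produce superoxide and hydrogen peroxide. Superoxide dismutases turn superoxide into hydrogen peroxide, which catalases split into water and oxygen and which peroxiredoxins reduce with electrons from thioredoxin and, in the end, NADPH. In yeast the peroxide-responsive transcription factor Yap1 is held in the nucleus once its cysteines are oxidised and then switches on thioredoxin and peroxidase genes. The general stress factors Msn2 and Msn4 act on CTT1 and many other genes when protein kinase A activity is low, as upon nutrient limitation.

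The upstream sequences show which of the 10 genes carry 1 set of letters taken for each of these factor types. The Msn2/Msn4 element was read as AGGGG on either strand and the Yap1 element as TTACTAA on either strand, in the 500 bases before each start codon of the R64 genome. The first was found upstream of 8 of the 10 genes and the Yap1 element upstream of 5, where 34.1% and 11.8% of 6006 promoters of the same length held them. No match shared a base with another. Sites are shown for CTT1, with 3 Msn2/Msn4 elements, and for TRX2, with 2 Yap1 elements. Those of the peroxiredoxin genes TSA1 and AHP1, the pair compared by their ratio, are shown as well. All sites shown are written 5′ to 3′ on the gene's strand with the element in capitals.
CTT1, 378 bases before the start codon (chrVII:654248-654268, plus strand): ctttttcaAGGGGatcaccgg
CTT1, 363 bases before (chrVII:654263-654283, plus strand): caccggtaAGGGGccaagcgg
CTT1, 133 bases before (chrVII:654493-654513, plus strand): tatcgtatCCCCTactgctac
TRX2, 217 bases before (chrVII:913430-913452, minus strand): ttatactcTTAGTAAaggatgct
TRX2, 181 bases before (chrVII:913394-913416, minus strand): ctcttttcTTACTAAgcgcgttc
TSA1, 437 bases before (chrXIII:219693-219713, plus strand): acactactCCCCTatgtgaag
TSA1, 53 bases before (chrXIII:220077-220097, plus strand): cgggccttCCCCTcgttcaat
AHP1, 458 bases before (chrXII:368315-368335, plus strand): atcggcgtCCCCTgtggggct
AHP1, 215 bases before (chrXII:368558-368578, plus strand): tttccacaCCCCTtccggacg
AHP1, 165 bases before (chrXII:368608-368628, plus strand): aaaaataaAGGGGtggaaaat
AHP1, 494 bases before (chrXII:368281-368301, plus strand): tgtctaTTAGTAAtcaagaaa
CTT1, AHP1 and TSA1 held 2 or more Msn2/Msn4 elements, as did 8.18% of promoters. TRX2 also held 1 Msn2/Msn4 element and was the only one of the 10 with 2 Yap1 elements, which 0.949% of promoters had. SOD1 and SOD2 each held 1 element of either kind, CTA1 1 Yap1 element, GRX1 and YAP1 1 Msn2/Msn4 element each, and TRX1 neither. A match is a description of the sequence and not evidence of binding. Only these letters were searched, so a gene without a match is not shown to lack sites for these factors.

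Library totals were 22167864 to 27752702 counts in high and 18977794 to 23644299 in the 3 low libraries used. Genes with 1 to 9 counts numbered 275 to 345 in high but 33 to 47 in the low libraries used, and genes without a count 383 to 511 against 983 to 1249. None of the 10 genes had fewer than 1252 counts in any library, but with so few genes at low counts in low, a count there may overstate how many molecules were sampled. The GFP transcript itself, whose protein defined the sort, spanned 69.2 to 340.8 CPM (read counts scaled to a common library size by TMM) in high and 121 to 201 in low, so the groups overlapped. Between libraries of the same code, GFP was higher in low for 1_2609 and _2909 and lower in low for 2_2609, 1_2709 and 2_2709. RPL28, whose promoter drove GFP, had 4.055 to 11.7 CPM in high and 4.885 to 20.35 in the 3 low libraries used, so it did not separate the groups either. Of 5 daughter-specific genes, DSE1, DSE2 and CTS1 were higher and EGT2 was lower in low, while DSE4 did not pass the test, and their summed level was 485 to 826 CPM in high and 1909 to 2526 in low. All 6 markers of mitosis and cytokinesis (HOF1, CHS2, CLB2, CDC5, SPO12, BUD4) were lower (5 of them with the replicate block, which lost CLB2), with sums of 659 to 987 CPM in high and 93.6 to 105 in low, and CLB2 was at 0 in 1 of the 3 low libraries. The part of these shifts, and of the lower number of genes detected in low, in the values below was not tested.

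Levels per gene length (FPKM, fragments scaled to gene length and library size, as deposited) spread over a wide range. In high, SOD1 had 5965 ± 843 FPKM (SD, n = 5) and AHP1 5398 ± 1148, ranks 11 and 14 of 7252 genes. SOD1 was above AHP1 in 3 of 5 high libraries, so their order was within the spread, while AHP1 was above the next gene, TSA1, in 5 of 5 by 4.03-fold on average. TSA1 at 1339 ± 182 FPKM, CTT1 at 1101 ± 425, TRX2 at 1020 ± 163 and GRX1 at 1004 ± 272 formed a group whose neighbours exchanged places between libraries. GRX1 exceeded SOD2, at 741 ± 226 FPKM, in every high library, and SOD2 and TRX1, at 645 ± 48.3, did not separate. YAP1 at 227 ± 11.2 FPKM and CTA1 at 58.8 ± 6.38 came last, each below its neighbour in 5 of 5 libraries. The peroxisomal catalase was thus the scarcest of the 10 transcripts, at rank 2841.

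**Figure D1:**
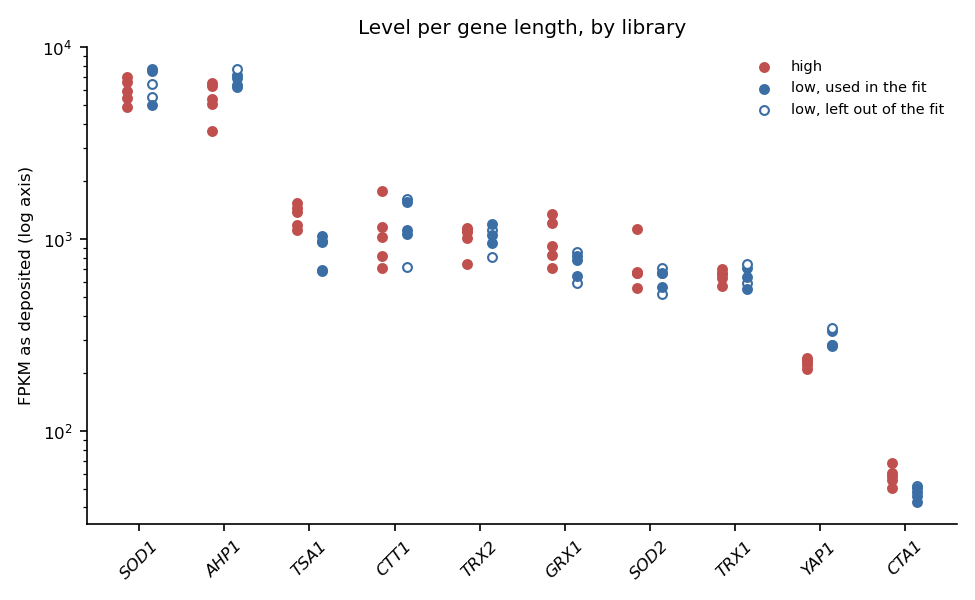
FPKM of each of the 10 genes (x axis, ordered by their mean in high) in every library on a log axis, with high libraries in red, the 3 low libraries of the comparison as filled blue points and the 2 left-out low libraries as open points. SOD1 and AHP1 lie highest, at means of 5965 and 5398 FPKM in high, and CTA1 lies lowest, at 58.8 FPKM.

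In low the order was close to that in high, with AHP1 at 6771 ± 516 FPKM (SD, n = 3) and SOD1 at 6740 ± 1498. CTT1 at 1248 ± 272 FPKM was above TRX2, at 1068 ± 126, in 3 of 3 low libraries. TSA1 stood at place 3 in high and at place 5 in low, with 897 ± 187 FPKM there. It was above CTT1 in 4 of 5 high libraries and below TRX2 in 2 of 3 low libraries, so neither place was separate from its neighbour. The rank of TSA1 among all genes was 99 in high and 166 in low, and that of YAP1 841 and 644. GRX1, SOD2, TRX1, YAP1 and CTA1 kept their places, at 748 ± 92.9, 632 ± 61.8, 630 ± 76.7, 298 ± 30.5 and 46.5 ± 4.01 FPKM.

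The comparison of low with high asked whether the subpopulation with low pRPL28 signal carried more or less of these defence transcripts. None of the 10 genes passed an adjusted p-value under 0.05 in edgeR's quasi-likelihood test, adjusted by Benjamini-Hochberg over the 6492 genes tested (hereafter called). Among all genes tested 335 (5.16%) were called, a share at which none of 10 genes is unremarkable. At an unadjusted p-value under 0.05 the genes were 3 of 10, namely YAP1 higher and TSA1 and CTA1 lower in low, against 17.6% of all genes. The same 3 were the genes whose groups did not overlap: low lay above high for YAP1 (4.78% of all genes) and below high for TSA1 and CTA1 (10.7%). The log2 fold changes ran from -0.59 to 0.39, with 5 of 10 above 0 and a median of 0.01, beside a median of -0.02 and 47.1% above 0 for all genes tested. All 10 of the 95% intervals lay within 1 log2 unit of 0, so changes of more than 2-fold lay outside the interval for each gene. In bulk RNA, fewer cells expressing a gene and less RNA per cell cannot be told apart.

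Other fits called TSA1 or YAP1. DESeq2 called TSA1 and YAP1 (9.88% of genes tested), edgeR with all 10 libraries called TSA1 (3.55%), and edgeR with the replicate code as a block over all 10 libraries called TSA1 and YAP1 (3.89%). With all 10 libraries the groups still did not overlap for YAP1, with low above high as in 1.84% of genes, and for TSA1, with low below high as in 5.62%. CTA1 then overlapped, as low 1_2709 had 80.9 CPM and high 2_2709 80.0.

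**Figure D2:**
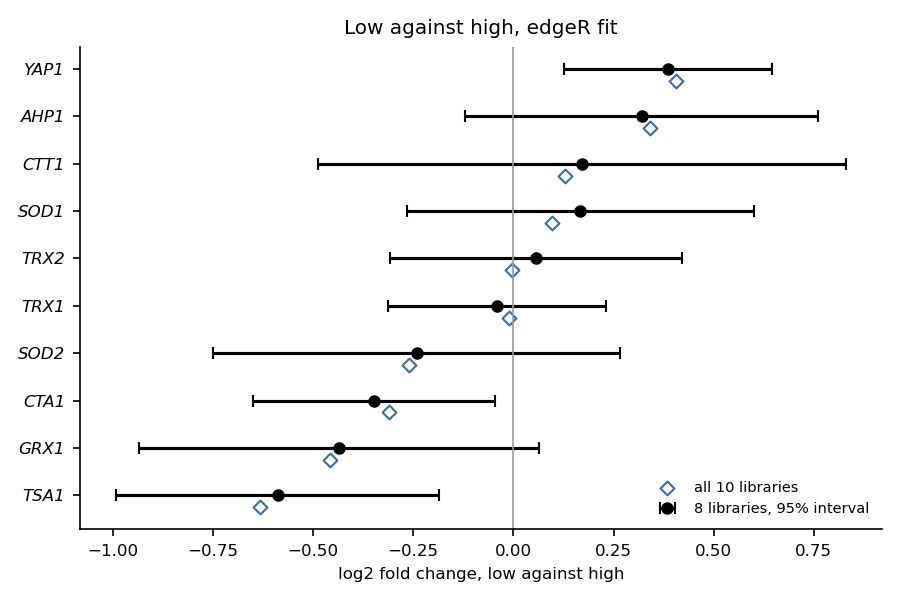
log2 fold change of low against high (x axis) for each gene in the edgeR fit of 8 libraries, as black points with 95% intervals, and in the fit of all 10 libraries as open diamonds. TSA1 (-0.59), CTA1 (-0.35) and YAP1 (0.39) are the genes whose interval does not include 0, and none has an adjusted p-value under 0.05.

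TSA1 (YML028W, chrXIII:220138-220728, plus strand) encodes the main cytosolic peroxiredoxin, a thioredoxin-dependent peroxidase that also acts as a chaperone. In the order 1_2609, 2_2609, 1_2709, 2_2709 and _2909 (the codes in the titles), used throughout, its levels in high were 942, 665, 718, 834 and 869 CPM. In low they were 619, 578 and 408 CPM in 1_2609, 2_2709 and _2909, and 408 and 583 CPM in the left-out 2_2609 and 1_2709. No low library reached the level of a high library, the nearest being low 1_2609 and high 2_2609. The means were 806 ± 113 CPM in high (SD, n = 5) and 535 ± 112 in low (SD, n = 3), a log2 fold change of -0.59 ± 0.18 (SE, 95% interval -0.99 to -0.19, fold 0.665, adjusted p = 0.108 in edgeR). With all 10 libraries the log2 fold change was -0.63 ± 0.16 (SE) with an adjusted p of 0.0465, with DESeq2 -0.58 and 0.0291, and with the block over all 10 libraries -0.64 and 0.0181. Over all alternatives the adjusted p lay between 0.0181 and 0.23. Low was lower in 5 of 5 pairs of libraries with the same code, by log2 differences of -0.30 to -1.09, and within each title ending, with -0.65 in _2609, -0.42 in _2709 and -1.09 in _2909, the last resting on 1 library of each kind.

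AHP1 (YLR109W, chrXII:368781-369311, plus strand), a thioredoxin peroxidase that prefers alkyl hydroperoxides, differed in the other direction. Its levels were 2003, 2902, 3425, 3527 and 2713 CPM in high, whereas low 1_2609, 2_2709 and _2909 had 3847, 3731 and 3310 CPM and the left-out low libraries 3392 and 4155. The groups overlapped, although low was higher in 5 of 5 pairs. The means were 2914 ± 614 CPM (SD, n = 5) and 3629 ± 283 (SD, n = 3), a log2 fold change of 0.32 ± 0.20 (SE, 95% interval -0.12 to 0.76) that was not called (adjusted p = 0.450 in edgeR).

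The ratio of AHP1 to TSA1 within a library does not depend on how libraries are scaled. It was 2.37, 4.85, 5.31, 4.71 and 3.48 in high and 6.91, 7.18 and 9.04 in the low libraries used, with 9.26 and 7.93 in those left out (FPKM). The 2 groups did not overlap. This was already so for TSA1 alone, so the ratio is not independent of the TSA1 result. In how many other pairs of genes the ratio separated the groups was not counted. The geometric mean was 3.98 in high and 7.66 in low, a log2 difference of 0.94. In the exact two-sided permutation test p was 0.0357, which is the smallest that 5 against 3 libraries allow. After adjustment over the 4 ratios compared it was 0.143. A single ratio at this smallest p cannot pass that adjustment, so the 8 libraries could not decide for this ratio alone. With all 10 libraries the mean in low was 8.01, the log2 difference 1.01 and p = 0.00794, again the smallest allowed (exact permutation test), with an adjusted p of 0.0317. With high and low exchanged only within libraries of the same code, the ratio was higher in low in 5 of 5 pairs, by log2 differences of 0.58 to 1.55, with p = 0.0625 (exact permutation test), the smallest that 5 pairs allow, and an adjusted p of 0.125, so the difference was not called once the codes were taken as pairs. The adjusted p over all alternatives lay between 0.0317 and 0.500. The difference was 0.76 without high 1_2609, the library with the lowest ratio, and between 0.82 and 1.05 without any other single library.

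**Figure D3:**
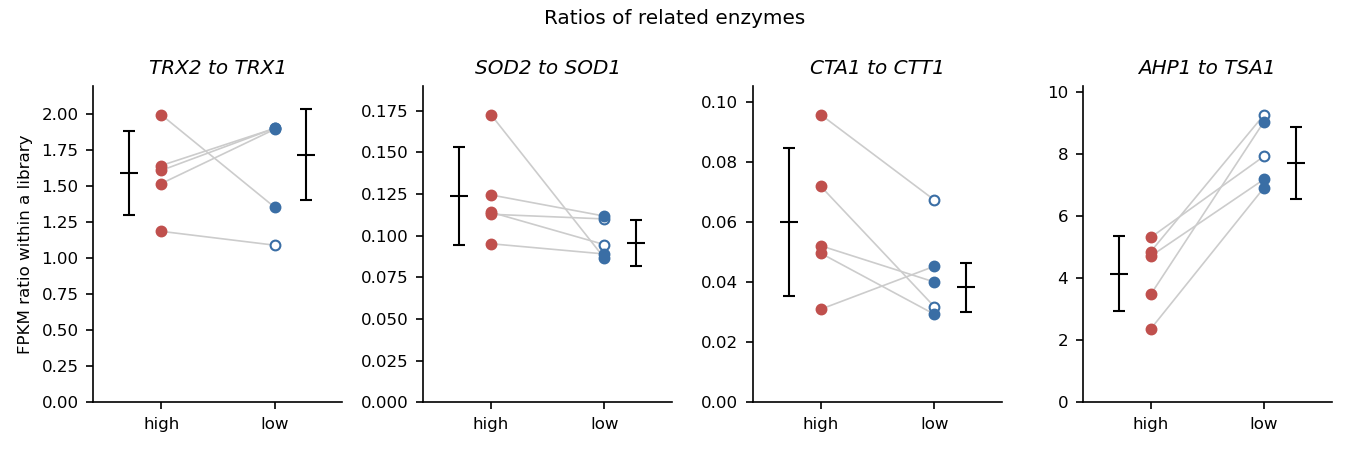
FPKM ratios of related genes within each library for high (red) and low (blue, open points for the left-out libraries), each panel with its own axis starting at 0, grey lines joining libraries of the same code and bars at the arithmetic mean ± SD of the 5 high and 3 low libraries compared. The AHP1 to TSA1 ratio is 2.37 to 5.31 in high and 6.91 or more in every low library, while the other 3 ratios overlap between the groups.

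The genes whose pattern over the 10 libraries was most like that of TSA1, among 4372 genes with a mean of at least 30 CPM, were YPR148C (Pearson r of 0.965 on log2 CPM), YBR085C-A (0.945) and HTZ1 (0.931). HTZ1, the histone variant H2A.Z, was itself called (log2 fold change -0.59, adjusted p = 0.0440 in edgeR). Among the other 9 defence genes r was 0.884 with GRX1, 0.702 with SOD2, -0.527 with AHP1 and -0.726 with YAP1. These coefficients describe 10 libraries that also differ by group and by title ending, and carry no test.

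**Figure D4:**
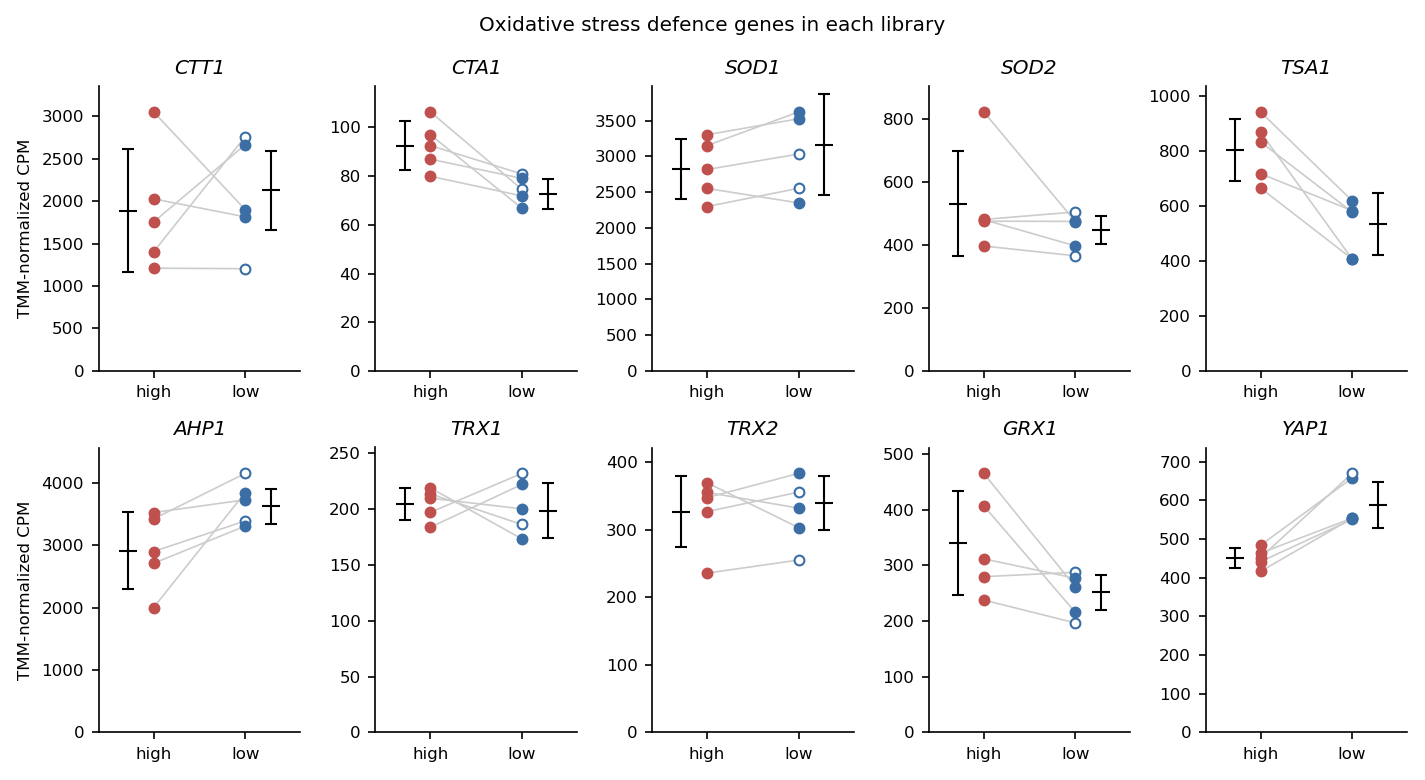
TMM-normalised CPM of each gene in every library, each panel with its own axis starting at 0. High libraries are red, low libraries blue (open where left out of the comparison), grey lines join libraries of the same code and bars give the mean ± SD of the 5 high and 3 low libraries compared; all 5 lines slope down from high to low for TSA1 and CTA1 and up for AHP1 and YAP1, while those of CTT1, TRX1 and TRX2 cross.

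CTT1 (YGR088W, chrVII:654634-656322, plus strand) encodes the cytosolic catalase T, the textbook target of Msn2 and Msn4. It varied more between libraries than between subpopulations. Its levels were 2028, 1211, 1403, 1755 and 3053 CPM in high and 1816, 2666 and 1902 in the 3 low libraries compared, with 1205 and 2761 in those left out. The lowest value of all 10 was in low and the highest in high. The means of 1890 ± 722 CPM (SD, n = 5) and 2128 ± 468 (SD, n = 3) gave a log2 fold change of 0.17 ± 0.29 (SE, 95% interval -0.49 to 0.83, adjusted p = 0.839 in edgeR). The direction differed between title endings: low against high was -0.10 on the log2 scale in _2609, 0.78 in _2709 and -0.68 in _2909, and low was higher in 2 of 5 pairs, both of them in _2709. Without low 2_2709 the log2 fold change was -0.02, and with the replicate block in the 8 libraries -0.08, so no direction was given by the data.

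The coefficient of variation of CTT1 in high was 38.2%, against a median of 21.2% for 122 genes of like level, but 22.8% against 21.3% without H_2909, the library with the highest value. Genes with a pattern over the 10 libraries most like that of CTT1 were HMRA1 (r = 0.959), ISU2 (0.952), an iron-sulphur cluster scaffold, and YPL199C (0.940). The counts of HMRA1 are uncertain, since the mating-type locus holds a near-identical copy. Of the 10 defence genes TRX2 was the most alike (0.816), followed by GRX1 (0.564), while r with the other catalase gene, CTA1, was -0.258. These values, too, describe 10 libraries and carry no test.

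CTA1 (YDR256C, chrIV:968133-969680, minus strand) encodes catalase A of peroxisomes and mitochondria, which removes hydrogen peroxide made by fatty acid oxidation. Its levels were 97.0, 106.4, 92.6, 80.0 and 87.0 CPM in high and 66.8, 71.9 and 79.1 in the 3 low libraries compared, with 74.6 and 80.9 in those left out. Low was lower in 5 of 5 pairs, and the groups of 8 libraries did not overlap, by a margin of under 1 CPM between L_2909 and H2_2709. The means were 92.6 ± 10.03 CPM (SD, n = 5) and 72.6 ± 6.16 (SD, n = 3), a log2 fold change of -0.35 ± 0.13 (SE, 95% interval -0.65 to -0.05, adjusted p = 0.208 in edgeR). The ratio of CTA1 to CTT1 was 0.0561 in high and 0.0377 in low on FPKM (geometric means), a log2 difference of -0.57 that was within the spread (exact two-sided permutation p = 0.179, adjusted 0.238).

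SOD1 (YJR104C, chrX:622550-623014, minus strand), the copper and zinc enzyme of the cytosol, had 3151, 2298, 2816, 3302 and 2551 CPM in high. It had 3621, 3525 and 2349 CPM in the low libraries used and 2553 and 3032 in those left out. The groups overlapped and low was higher in 4 of 5 pairs. The log2 fold change was 0.17 ± 0.19 (SE, 95% interval -0.27 to 0.60, adjusted p = 0.746 in edgeR), from means of 2824 ± 415 (SD, n = 5) and 3165 ± 708 CPM (SD, n = 3).

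SOD2 (YHR008C, chrVIII:122889-123590, minus strand), the manganese enzyme of the mitochondrial matrix, had 821, 396, 480, 475 and 479 CPM in high and 473, 474 and 396 in the 3 low libraries compared, with 365 and 503.9 in those left out. Apart from high 1_2609 the libraries compared covered a like range in both groups. The log2 fold change of -0.24 ± 0.23 (SE, 95% interval -0.75 to 0.27, adjusted p = 0.664 in edgeR) became -0.03 without that library. The SOD2 to SOD1 ratio was 0.121 in high and 0.0952 in low on FPKM (geometric means), a log2 difference of -0.35 with p = 0.0714 (exact two-sided permutation test, adjusted 0.143). With all 10 libraries the difference was -0.31 with p = 0.0476 (exact permutation test, adjusted 0.0952).

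The cytosolic thioredoxins TRX1 (YLR043C, chrXII:231702-232013, minus strand) and TRX2 (YGR209C, chrVII:912913-913227, minus strand), which pass electrons to peroxiredoxins and to ribonucleotide reductase, differed least between the subpopulations. TRX1 had 184, 197, 213, 210 and 219 CPM in high and 222, 200.1 and 173 in the 3 low libraries compared, with 232 and 186 in those left out. TRX2 had 370, 236, 327, 348 and 355 CPM in high and 303, 384 and 332 in the 3 low libraries compared, with 255 and 356 in those left out. For TRX1 the low values lay on both sides of the high range, and for TRX2 the groups overlapped. The log2 fold change was -0.04 ± 0.12 (SE, 95% interval -0.31 to 0.23) for TRX1. For TRX2 it was 0.06 ± 0.16 (SE, 95% interval -0.31 to 0.42). Neither direction was stable, as TRX1 was at 0.04 without L_2909, and TRX2 at -0.04 without either high 2_2609 or low 2_2709 and at -0.0041 with all 10 libraries. The ratio of TRX2 to TRX1 was 1.57 in high and 1.70 in low on FPKM (geometric means), with an exact two-sided permutation p of 0.607 that was unchanged by the adjustment.

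GRX1 (YCL035C, chrIII:60841-61173, minus strand), a glutathione-dependent disulphide reductase, had 465, 238, 280, 312 and 407 CPM in high and 261, 277 and 216 in the 3 low libraries compared, with 197 and 288 in those left out. The groups overlapped, and low was lower in 4 of 5 pairs. The means were 340 ± 93.7 CPM (SD, n = 5) and 251 ± 31.8 (SD, n = 3), and the log2 fold change was -0.44 ± 0.22 (SE, 95% interval -0.93 to 0.06, adjusted p = 0.351 in edgeR). The coefficient of variation of GRX1 in high was 27.5%, against a median of 14.6% for genes of like level, and 23.3% against 11.01% without high 1_2609.

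YAP1 (YML007W, chrXIII:253848-255800, plus strand), the peroxide-responsive transcription factor itself, was the steadiest of the 10 genes in high and the one with the largest positive difference. It had 484, 452, 441, 464 and 416 CPM in high, whereas low had 658, 554 and 553 CPM, and 670 and 550.4 in those left out. The highest of the high libraries stayed below the lowest of the low libraries. The means were 451 ± 25.2 CPM (SD, n = 5) and 588 ± 60.1 (SD, n = 3), a log2 fold change of 0.39 ± 0.12 (SE, 95% interval 0.13 to 0.65, fold 1.31, adjusted p = 0.1004 in edgeR). DESeq2 gave 0.40 with an adjusted p of 0.00824, the block over all 10 libraries 0.40 with 0.0436, and all 10 libraries without a block 0.41 with 0.0554, within a range of 0.00824 to 0.317 over all alternatives. Low was higher in 5 of 5 pairs, by log2 differences of 0.26 to 0.57, and within each title ending, with 0.51 in _2609, 0.29 in _2709 and 0.41 in _2909. Its coefficient of variation in high was 5.58%, against a median of 15.4% for 823 genes of like level. The YAP1 protein is regulated by oxidation and nuclear export, which RNA levels do not report.

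Of 6 other transcription factors and cofactors of the oxidative and general stress response (SKN7, YBP1, CAD1, MSN2, MSN4, STB5), 6 had a positive log2 fold change and none was called by edgeR or DESeq2. The median was 0.28, beside -0.02 for all genes, and the range was 0.15 for MSN4 to 0.55 for STB5, the regulator of NADPH-producing genes. The shared sign held for the 8 libraries but not for all 10, with which YBP1 was at -0.01 and the median at 0.19 (0.16 with the replicate block), and YBP1 was higher in low in 1 of 5 pairs. STB5 was the only one of the 6 with an unadjusted p under 0.05. CAD1, a close relative of YAP1, was the most abundant per gene length, at 97.3 FPKM over the 10 libraries, with a log2 fold change of 0.40 ± 0.21 (SE, 95% interval -0.07 to 0.87, adjusted p = 0.365 in edgeR). With all 10 libraries CAD1 was at 0.10 ± 0.25 (SE), and low was higher in 3 of 5 pairs. MSN2 had 0.31 ± 0.15 (SE), and 0.53 ± 0.17 (SE, adjusted p = 0.133 in edgeR) with all 10 libraries, and low was higher in 5 of 5 pairs.

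The 45 further genes of oxidative stress defence, grouped by role, were all tested. None was called by edgeR, against 5.16% of all genes. An unadjusted p-value under 0.05 was found for 6 (5 higher, 1 lower), against 17.6% of all genes, and DESeq2 called 1, SRX1, against 9.88%. Of the 45, 27 had a positive and 18 a negative log2 fold change (47.1% of all genes were positive), with a median of 0.11, and 37 had an interval within 1 log2 unit of 0. The 5 with a higher level in low at the unadjusted threshold were FLR1, a multidrug exporter, GSH1, the first enzyme of glutathione synthesis, GTT2, a glutathione transferase, GRX8 and STB5. The lower one was SRX1, sulfiredoxin, which restores over-oxidised TSA1, at 16.2 ± 3.09 CPM in high (SD, n = 5) and 9.71 ± 1.51 in low (SD, n = 3), a log2 fold change of -0.73 ± 0.27 (SE, adjusted p = 0.189 in edgeR). With all 10 libraries its groups overlapped and the log2 fold change was -0.25 ± 0.49 (SE). These genes were named because of their values. SRX1 is among the scarcer genes of the list, and it was lower in low in 4 of 5 pairs. GRX8 had a log2 fold change of 0.56 ± 0.21 (SE, adjusted p = 0.187 in edgeR), and 0.80 ± 0.21 (SE, adjusted p = 0.0592 in edgeR) with all 10 libraries. Low was higher for GRX8 in 5 of 5 pairs. Its low libraries lay above all high libraries in the 8, as in 4.78% of all genes, and in all 10, as in 1.84%.

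By role, the 3 other peroxiredoxins had negative values (median -0.24), and the mitochondrial PRX1, the most abundant per length, had -0.04 ± 0.13 (SE). The 4 other peroxidases had a median of 0.19, which was 0.06 with all 10 libraries and -0.0024 with the replicate block in the 8, with HYR1, which passes the peroxide signal on to YAP1, at -0.01 ± 0.14 (SE). Thioredoxin reductase TRR1 had a log2 fold change of -0.30 ± 0.15 (SE, 95% interval -0.63 to 0.03, adjusted p = 0.333 in edgeR), which was -0.16 ± 0.15 (SE) with all 10 libraries. GRX2, the paralogue of GRX1, had 0.37 ± 0.18 (SE, adjusted p = 0.309 in edgeR), the opposite sign to GRX1, with low higher in 5 of 5 pairs. With all 10 libraries GRX2 was at 0.26 ± 0.16 (SE). Among glutathione enzymes the transferase GTT1 had 0.18 ± 0.16 (SE), and the methionine sulphoxide reductase MXR1 had 0.32 ± 0.21. CCS1, the copper chaperone of SOD1, had 0.11 ± 0.18 (SE). ZWF1, the glucose-6-phosphate dehydrogenase that feeds NADPH to the thioredoxin system, had 0.33 ± 0.16 (SE, adjusted p = 0.336 in edgeR). Its low libraries used lay above all high libraries, as in 4.78% of all genes. With all 10 libraries its groups overlapped, the lowest low library being at 1273 CPM and the highest high library at 1369. The old yellow enzyme OYE2 had -0.01 ± 0.20 (SE). No role held a gene called by edgeR.

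**Figure D5:**
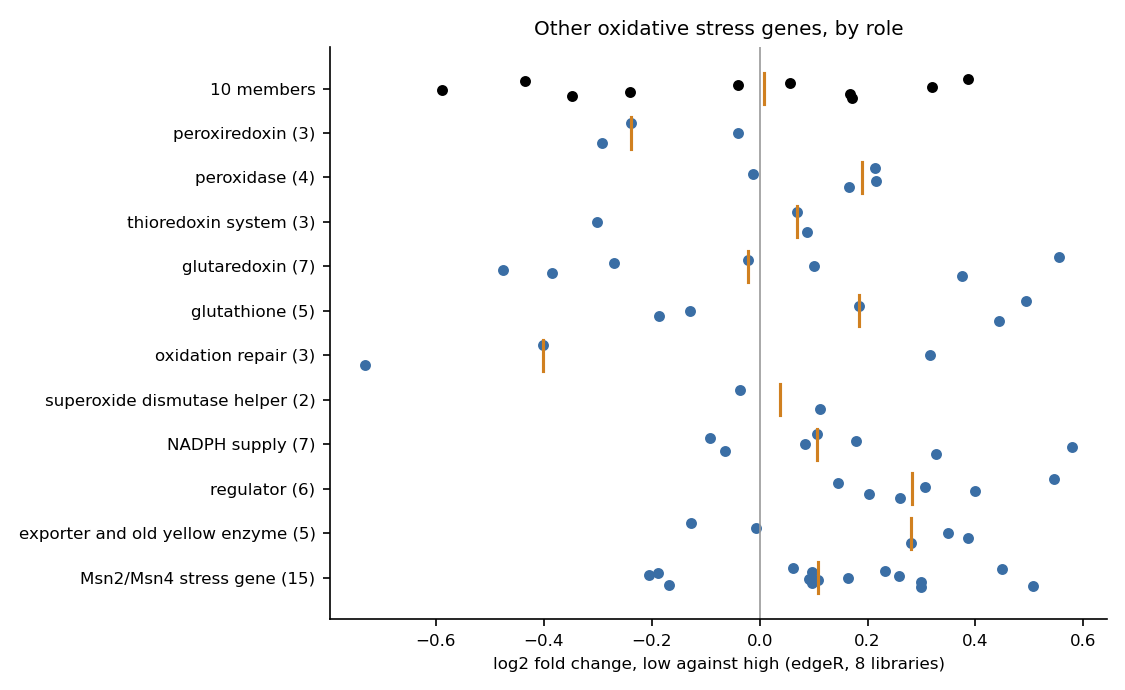
log2 fold change of low against high (x axis, edgeR, 8 libraries) of each gene by role, with the number of genes in parentheses, points shifted vertically for legibility and orange bars at the median of a role. The 10 defence genes spread from -0.59 to 0.39 around a median of 0.01, all 3 other peroxiredoxins lie below 0 and all 6 regulators above 0, and no gene shown has an adjusted p-value under 0.05.

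A list of 15 genes taken as driven by Msn2 and Msn4 was set beside CTT1, which held 3 Msn2/Msn4 elements. The sequences upstream of the 15 genes were not shown here. Of these, 12 had a positive and 3 a negative log2 fold change, none was called by edgeR or DESeq2 and none had an unadjusted p under 0.05, beside 47.1% positive, 5.16% called and 17.6% at the unadjusted threshold among all genes. The median was 0.11. Their summed level was 37420 to 64500 CPM in high and 43530 to 59040 in low, so the low range lay inside the high range. HSP12, a membrane-protecting stress protein and the most abundant of them, had 11150 ± 3405 CPM in high (SD, n = 5) and 13690 ± 3259 in low (SD, n = 3), with a log2 fold change of 0.30 ± 0.27 (SE).

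The longest stretch of identical coding sequence was 17 bases between TRX1 and TRX2, 14 between TSA1 and TSA2, 11 between CTT1 and CTA1 and between SOD1 and SOD2, and 9 between GRX1 and GRX2, shorter than a sequencing read. None of the 10 gene models overlapped another annotated gene.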

How the data were processed

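Poly(A) RNA of sorted cells was sequenced as paired reads. Per the labels and the study's methods, reads were aligned by HISAT2 to the genome of a stated Ensembl release, and the authors deposited raw read counts for each gene. The counting tool, its strand setting and the name of the assembly were not given in the sources used here. All 10 genes had the same coordinates in R64, as did 6036 of 6048 shared identifiers. The authors also deposited FPKM, which equal counts over gene length and library total, times a factor per library of 0.906 to 1.03.

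The 5 high and 3 low libraries of the study entered edgeR 4.0.16 (R 4.3.3; filterByExpr, TMM, quasi-likelihood test, Benjamini-Hochberg over 6492 genes, threshold 0.05). TMM factors over all 10 libraries gave the CPM. Biological variation (BCV) came to 0.355 in the 8 and 0.458 in all 10. Ratios were tested on FPKM by exact permutation over samples. The labels call the libraries biological replicates but do not say what the endings of the titles (_2609, _2709, _2909) mean. Reads carry no molecular identifiers, so counts are not independent molecules, and p-values measure the spread between these libraries. Alternatives were DESeq2 1.42.0, limma 3.58.1 (voom, and log2(FPKM + 1) or log2(FPKM + 0.1)), RLE and upper quartile factors, other filters, protein-coding genes, blocks, all 10 libraries and each library left out. The alternatives for the ratios (all 10 libraries, exchange within code pairs, a library left out), the coefficients of variation without 1 library, and the promoter window of 500 bases, were chosen after seeing the data.

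High and low libraries share replicate codes. Correlations of the deviations from the group means were 0.276, 0.105 and 0.306 for the 3 pairs within the 8 libraries (4346 genes). Each was above the limit of 0.1, so codes were treated as pairs in the block alternatives and in the exchange within code pairs. The main edgeR fit and the main ratio tests held no block, so their standard errors, intervals and p-values are unpaired. Over all 10 libraries r was 0.0205 to 0.603. High 2_2609 and high 1_2709 have no partner in the 8 and add nothing to the blocked log2 fold changes.

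The members and lists were chosen with earlier results of these data known. The text names all 10 genes, called genes of the lists, the gene with the highest mean FPKM in each role without a call, and genes of most similar pattern (for CTT1 and TSA1, as no member was called). Genes outside this rule are said to be named for their values or listed with their group. Fits were tested on simulated data.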

Additional observations from a re-analysis of the deposited data

Results flagged for a closer look

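SOD2, the mitochondrial superoxide dismutase, had one high library far from the other 4. High 1_2609 was at 821 CPM and the next highest, high 1_2709, at 480. The gap took 0.802 of the range of the group, above Dixon's limit of 0.71 for 5 samples. Each of the 10 genes was examined in high and in all low libraries, 20 groups in all, of which chance alone sets apart about 1 in 20.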

How the results depend on the processing

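Each result was recomputed under 22 alternatives, and each ratio under 11. CTA1, SOD1, SOD2, AHP1 and GRX1 kept their direction and stayed uncalled under all 22, with SOD2 between -0.36 and -0.03 and GRX1 between -0.64 and -0.30. The 335 genes called became 677 with DESeq2 and 97 with the replicate block in the 8 libraries, which holds 3 pairs. They ranged from 113 to 437 with 1 library left out, falling by over 1.5 times without high 1_2709 (113), high 2_2709 (119) or high 2_2609 (211). The 0 of 10 defence genes became 1 with all 10 libraries, 2 with DESeq2 and 2 with the replicate block over all 10, and stayed 0 with the block in the 8 and with any library left out. TSA1 was called with all 10 libraries (-0.63), DESeq2 (-0.58) and the replicate block over all 10 (-0.64), and YAP1 with DESeq2 (0.40) and that block (0.40). The 0 of 45 further genes became 1 with DESeq2 (SRX1) and 1 with the replicate block over all 10 (GRX8), and ranged from 0 to 1 with a library left out (GSH1 without high 1_2609). CTT1 was at -0.080 with the replicate block in the 8 and from -0.018 (without low 2_2709) to 0.42 with a library left out. TRX2 was at -0.0041 with all 10 libraries, at -0.080 with the replicate block in the 8 and from -0.042 to 0.13 with a library left out, and TRX1 from -0.13 to 0.045. The AHP1 to TSA1 difference passed with all 10 libraries (1.01). With a library left out of the 8, no ratio could pass, as the smallest exact p allowed is then above the threshold. Exchanged only within code pairs, a replicate block for the ratios, no ratio was called, and none could be, since the smallest exact p is 0.25 for the 3 pairs of the 8 libraries and 0.0625 for 5 pairs. The TRX2 to TRX1 difference was then -0.036 in the 8. The block changed no other call of the 10 genes. The cause of these differences was not tested.

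Precision was set by 3 low and 5 high libraries: genes with a mean of at least 30 CPM had a median standard error of 0.18 log2 units. The number of molecules behind the counts in low was not estimated.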
